A study of Homo sapiens with 4 samples.

Results

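Zinc finger genes named ZNF plus a number form the largest named group of transcription factor genes in the human genome, and those outside chromosome 19 are described here. They were chosen by symbol among the protein-coding genes of GENCODE release 44 lifted to hg19, on chromosomes 1 to 18 and 20 to 22. The rule uses no measured values, but it was set with earlier results of these data known. This gave 250 genes out of 20162 coding genes in all and out of 17749 on the same chromosomes. The label was checked on the coding sequences: of the 249 members with a translated protein, 239 held at least 1 C2H2 finger by a letter pattern and 202 held at least 4.

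The study compared DNA methylation in HEK293, a human embryonic kidney cell line, across 4 conditions with 1 MBD-seq library each, and asked how far a methylation editor acts away from its target. Cells labelled WT carried dCas9 with a SunTag array, an antibody fragment fused to the wild type catalytic domain of DNMT3A with DNMT3L (Ab-3A3L), and a guide RNA against the ISG15 CpG island. The K844E and R887E cells carried the same parts with 1 exchanged residue in DNMT3A, and the untreated cells carried none of them. Transfection was transient, and the transfected cells were sorted by fluorescence and collected after 3 days, so each library is a bulk of cells. MBD-seq pulls down sheared DNA with the methyl-CpG binding protein MBD2, so that fragments pile up where methylated CpGs are dense. All values below come from the 12864 new peaks of the WT library, regions with more signal than in untreated cells. The untreated, K844E and R887E libraries were not analysed here.

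C2H2 zinc finger proteins read DNA with tandem fingers that each contact a few bases. Many of them carry a KRAB domain, which binds TRIM28 (KAP1) and through it the histone methyltransferase SETDB1 and HP1 proteins, and these proteins are known for silencing transposable elements. Their genes arose by tandem duplication and often stand in clusters, and most of their promoters lie in CpG islands, which are kept free of methylation in most cells and which DNMT3A with DNMT3L methylates when it is in excess.

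The sequences that carry the comparison are the DNA under the summits of strong and weak peaks and the DNA just before CpG-rich start sites that had no peak. The first group gives the summit with 50 bp on either side, read from the plus strand of the GRCh37 (hg19) genome with CpGs in capitals, for 4 of the 8 members with the highest fold. These lie at chr10:48354550-48354650 (ZNF488), chr9:99181564-99181664 (ZNF367), chr15:85291312-85291412 (ZNF592) and chr10:38265222-38265322 (ZNF25). The windows hold 10, 18, 8 and 8 CpGs in that order. Those of the 8 that are not shown, ZNF365, ZNF131, ZNF395 and ZNF639, hold 19, 15, 5 and 19. A high fold was thus found over windows with fewer as well as more CpGs than the median of 12 at the members' summits.
ZNF488: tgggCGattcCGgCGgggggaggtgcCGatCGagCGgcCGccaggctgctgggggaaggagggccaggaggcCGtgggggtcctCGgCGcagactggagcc
ZNF367: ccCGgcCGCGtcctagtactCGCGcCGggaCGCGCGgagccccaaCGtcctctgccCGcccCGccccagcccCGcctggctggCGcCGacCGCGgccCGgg
ZNF592: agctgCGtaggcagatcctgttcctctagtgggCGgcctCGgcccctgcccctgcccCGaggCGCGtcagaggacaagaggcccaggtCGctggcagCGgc
ZNF25: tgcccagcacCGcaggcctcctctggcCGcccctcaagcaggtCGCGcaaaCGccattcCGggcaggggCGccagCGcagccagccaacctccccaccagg

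The second group gives the same window for the 2 members with the lowest fold, at chr7:148959475-148959575 (ZNF783) and chr16:88450232-88450332 (ZNF469). They hold 18 and 12 CpGs, again marked by capitals. The ZNF783 window is as dense in CpGs as that of ZNF367, although its fold was the lowest of all members.
ZNF783: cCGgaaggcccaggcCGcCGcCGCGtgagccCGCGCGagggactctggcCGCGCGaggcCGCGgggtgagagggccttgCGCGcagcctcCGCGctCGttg
ZNF469: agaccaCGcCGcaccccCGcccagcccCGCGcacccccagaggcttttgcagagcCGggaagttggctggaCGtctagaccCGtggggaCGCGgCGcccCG

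The third group gives the 100 bp before the start site, in the direction of the gene, for the 5 members with the most promoter CpGs and no new peak. ZNF511 ties with the last of them, ZNF710, at 168 CpGs and is not shown. They lie at chr1:33721993-33722092 (ZNF362, plus strand), chr4:10459051-10459150 (ZNF518B, minus strand), chr16:58034577-58034676 (ZNF319, minus strand), chr7:6676849-6676948 (ZNF316, plus strand) and chr15:90544456-90544555 (ZNF710, plus strand). The first 4 hold 18, 16, 18 and 19 CpGs and are denser in CpGs than most summits of members, whose windows hold a median of 12 (quartiles 9 and 14), whereas the ZNF710 stretch holds 0 CpGs, its 168 promoter CpGs lying elsewhere within 1000 bp of the start.
ZNF362: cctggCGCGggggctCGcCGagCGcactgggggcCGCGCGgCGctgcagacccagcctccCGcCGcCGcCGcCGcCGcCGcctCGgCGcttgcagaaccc
ZNF518B: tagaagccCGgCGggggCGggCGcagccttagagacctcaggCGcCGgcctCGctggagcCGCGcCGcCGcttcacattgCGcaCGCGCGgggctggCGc
ZNF319: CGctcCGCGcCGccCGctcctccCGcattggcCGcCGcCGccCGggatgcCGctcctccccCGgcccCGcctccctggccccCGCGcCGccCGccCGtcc
ZNF316: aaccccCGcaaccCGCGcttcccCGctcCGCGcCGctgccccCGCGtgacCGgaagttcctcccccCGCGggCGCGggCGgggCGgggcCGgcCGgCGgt
ZNF710: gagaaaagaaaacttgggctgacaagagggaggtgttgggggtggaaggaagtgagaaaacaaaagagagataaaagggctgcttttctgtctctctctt

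New peaks were found at the promoters of 109 of the 250 zinc finger genes, or 43.6% (95% exact binomial interval 37.4 to 49.99), where a promoter is the DNA within 1000 bp of the canonical start site and an overlap of 1 bp counted. The background share, over all coding promoters of the same chromosomes, was 44.9%. Over all CpG numbers, the members therefore gained peaks about as often as coding genes in general. But 8.8% of the members, beside 25.1% of the other coding genes, had promoters with fewer than 50 CpGs, where peaks were rare. From 100 CpGs to fewer than 150, 55.2% of the members and 70.3% of the other coding genes had a peak. In each other CpG class described below the intervals overlapped, with the members' share higher only in the class with the most CpGs. Peaks of fold 10 or more, where fold is the peak caller's ratio of fragments at the summit to a local background, were found at 30 members, or 12% (8.24 to 16.7), beside a background of 14.8%. The zinc finger genes of chromosome 19 gave 55 of 246, or 22.4% (17.3 to 28.1), and all coding genes of that chromosome 23.6%. Intervals cover counting error only, and with 1 library there was no replicate check and no test.

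The 141 members without a new peak are not shown to be unmethylated. A promoter that was methylated in untreated cells gives no new peak, nor does one below the detection limit of the library, and these cases cannot be told apart here. The nearest new peak lay at a median of 76322 bp from the start sites of these members.

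At the promoters with a peak, the median fold of the highest peak was 7.84 (quartiles 6.13 and 10.6, range 2.79 to 20.5), beside 8.46 over all coding promoters with a peak and 6.85 for the zinc finger genes of chromosome 19. The members' summits held a median of 17 fragments, between 7 and 46. Those of all coding promoters also had a median of 17, between 6 and 95. Peak width had a median of 566 bp, beside 608 bp. In 32 of the 109 cases the background rate was the lowest in the list, 0.611 fragments, which is the genome-wide rate.

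**Figure D1:**
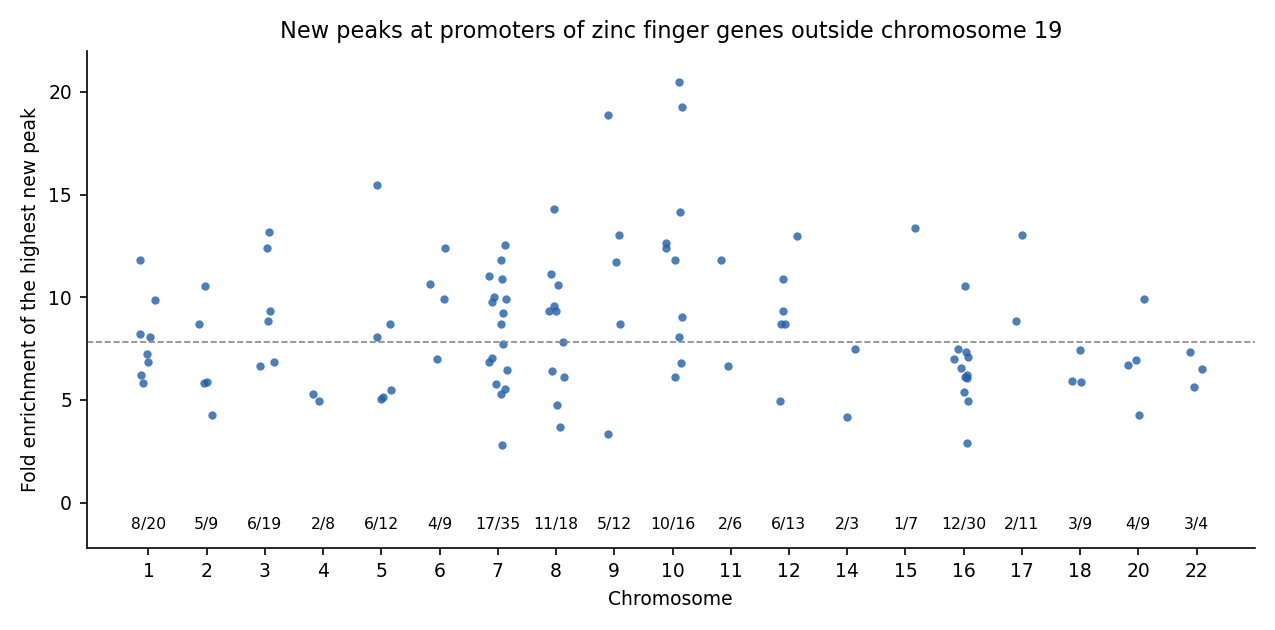
Fold of the highest new peak at each zinc finger promoter (y axis) by chromosome (x axis), 1 point per gene, WT library, with the number of members with a peak over all members below the points and a dashed line at the members' median of 7.84. Chromosome 10 holds both of the highest values, ZNF365 at 20.5 and ZNF488 at 19.2.

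The strongest peak stood at ZNF365, a gene linked to genome stability, on chromosome 10 at 64133732 to 64134452 with a fold of 20.5. Its summit held 32 fragments over the lowest background rate and lay 52 bp upstream of the start site, although the promoter had only 90 CpGs. ZNF488, which encodes a regulator of oligodendrocyte differentiation, followed with a fold of 19.2 and 30 fragments over a promoter of 89 CpGs. The values stood above 99.5% and 99.2% of the folds in the whole list.

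The third was ZNF367, with a fold of 18.9 and the most fragments of any member, 46. Its peak was also the widest, 2279 bp from 99179564 to 99181842 on chromosome 9, and held 269 CpGs. ZNF131, a BTB domain transcription factor, had a fold of 15.5, 34 fragments and a peak of 1366 bp. These 2 genes had strong signal over a long stretch, and in both the peak covered the start site.

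ZNF395, whose product binds the promoter of the Huntington disease gene, had a fold of 14.3 with 22 fragments. ZNF25, a KRAB gene, reached 14.2 with 23 fragments in a peak of 547 bp that lay wholly downstream of the start site, with its summit in intron 1. ZNF592, a partner of ZNF687 and ZMYND8, had a fold of 13.4 with 22 fragments, and ZNF639, located in a segment of chromosome 3 amplified in squamous carcinomas, a fold of 13.2 with 21 fragments. The 8 highest folds thus came from 21 to 46 fragments.

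At the other end, ZNF783 had a fold of 2.79, ZNF469, the gene mutated in brittle cornea syndrome, 2.90, ZNF169 3.36 and ZNF696 3.69. Their summits held 25, 24, 35 and 36 fragments, more than the members' median, over background rates of 8.33, 7.63, 9.72 and 9.02 fragments. The low fold of these 4 genes therefore went with a high background and not with few fragments. Whether the background reflects methylation before treatment or copy number was not tested. In all, 11 members had a fold under 5.

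The wide peaks at ZNF250 (1899 bp, fold 10.6, 17 fragments) and ZNF425 (1327 bp, fold 10.9, 21 fragments), both KRAB genes, had folds above the median. Widths of 1000 bp or more were found for 13 members and widths under 300 bp for 9.

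Of the 109 members with a peak, 93 had 1 and 16 had 2, which gave 124 distinct peaks. One was shared by a divergent pair, ZNF10 and ZNF891, on chromosome 12 at 133706679 to 133707276, with a fold of 8.69 and 13 fragments. ZNF10 (KOX1) is the source of the KRAB domain used in CRISPR interference. The shared peak covered both start sites, so it counts as 1 event for 2 members.

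The highest peak covered the start site in 61 of the 109 members, lay wholly downstream in 31 and wholly upstream in 17. The summit lay at a median of 139 bp downstream of the start (quartiles -154 and 303 bp), and within 500 bp of it in 83. By the annotation of the canonical transcript, the summit was upstream of the gene in 41 members, in a 5′ untranslated exon in 18, in a coding exon in 8 and in an intron in 42, in 40 of these intron 1. A peak that covered the start site was found at 25.2% of the members and at 29.2% of all coding genes.

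**Figure D2:**
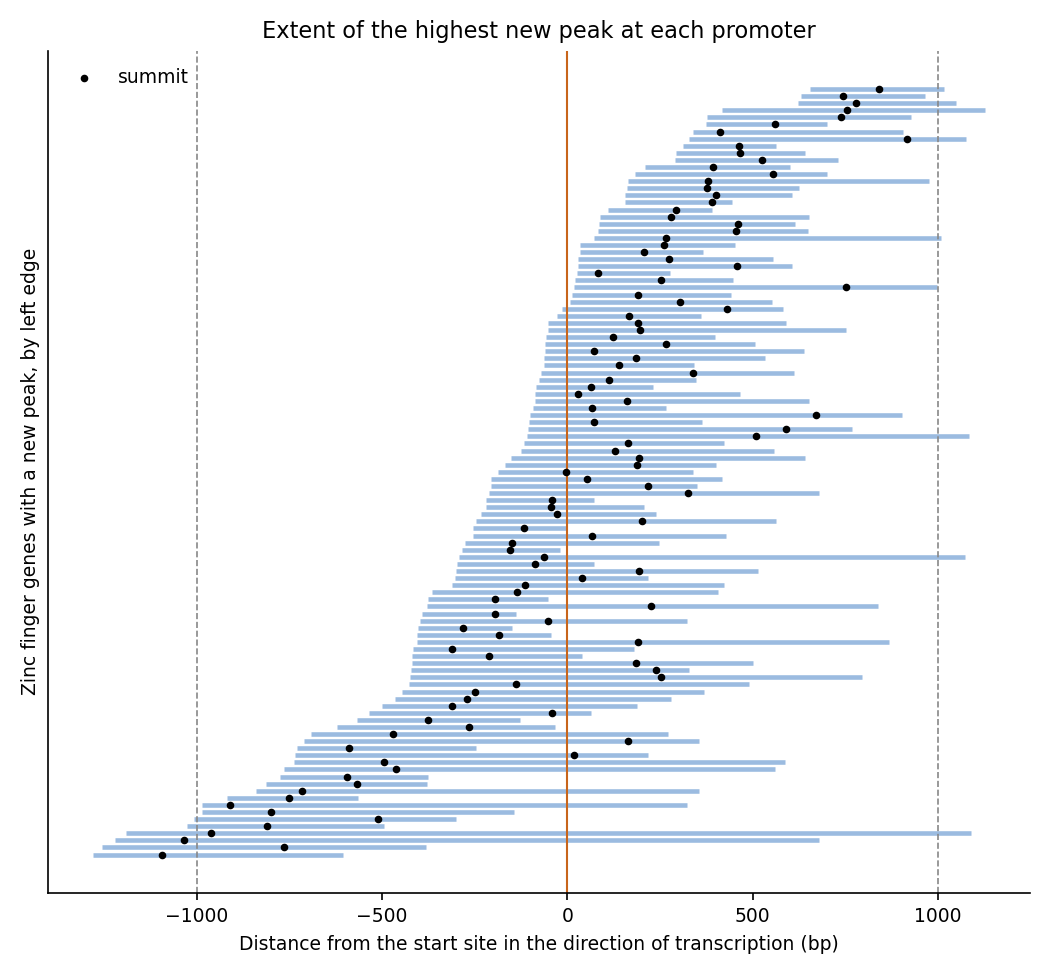
Extent of the highest new peak at each of the 109 zinc finger genes with a peak (x axis, distance from the start site in bp in the direction of the gene; 1 line per gene, ordered by its left edge, with a dot at the summit). The orange line marks the start site and the dashed lines 1000 bp on either side, and the highest peak covers the start site in 61 genes.

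Members with a peak had more CpGs than those without. Promoters with a new peak held a median of 126 CpGs (69 to 261) and those without 85 (7 to 209), beside 131 and 59 for all coding genes. The GC content was 58.8% against 52.6%, and the observed over expected CpG ratio 0.728 against 0.619. Both groups overlapped widely between 69 and 209 CpGs.

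None of the 22 members with fewer than 50 CpGs had a peak, which allows a share of up to 13.6%, beside 1.07% of the other coding genes. With 50 or more but fewer than 100 CpGs, 25 of 92 members had one, or 27.2% (18.4 to 37.4), beside 32.4%. From 100 CpGs to fewer than 150, the members reached 53 of 96, or 55.2% (44.7 to 65.4), beside 70.3% (69.0 to 71.5) of the other coding genes. This was the class in which the intervals of the members and the other coding genes stood apart.

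From 150 CpGs to fewer than 200, 24 of 32 members had a peak, or 75% (56.6 to 88.5), beside 81.6%, and with 200 or more 7 of 8, or 87.5% (47.3 to 99.7), beside 80.7%. With classes of the same sizes set by the CpGs close to the start site, within 250 bp, the members' shares were 4.55%, 20.7%, 64.6%, 71.9% and 50% from the lowest to the highest. The top class thus fell below the one before it. The other coding genes were not classed in this way, so whether they stand apart from the members there was not tested. The zinc finger genes of chromosome 19 gave 19.7% (34 of 173, interval 14.0 to 26.4) in the class that starts at 50 CpGs. In that which starts at 100 they gave 34.6% (18 of 52, interval 21.97 to 49.1). The shares of the members outside chromosome 19 stood between these and the other coding genes, but their intervals overlapped those of chromosome 19. The other coding genes leave out chromosome 19, where all coding genes gave 23.6%, so the chromosome and the gene group were not separated.

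**Figure D3:**
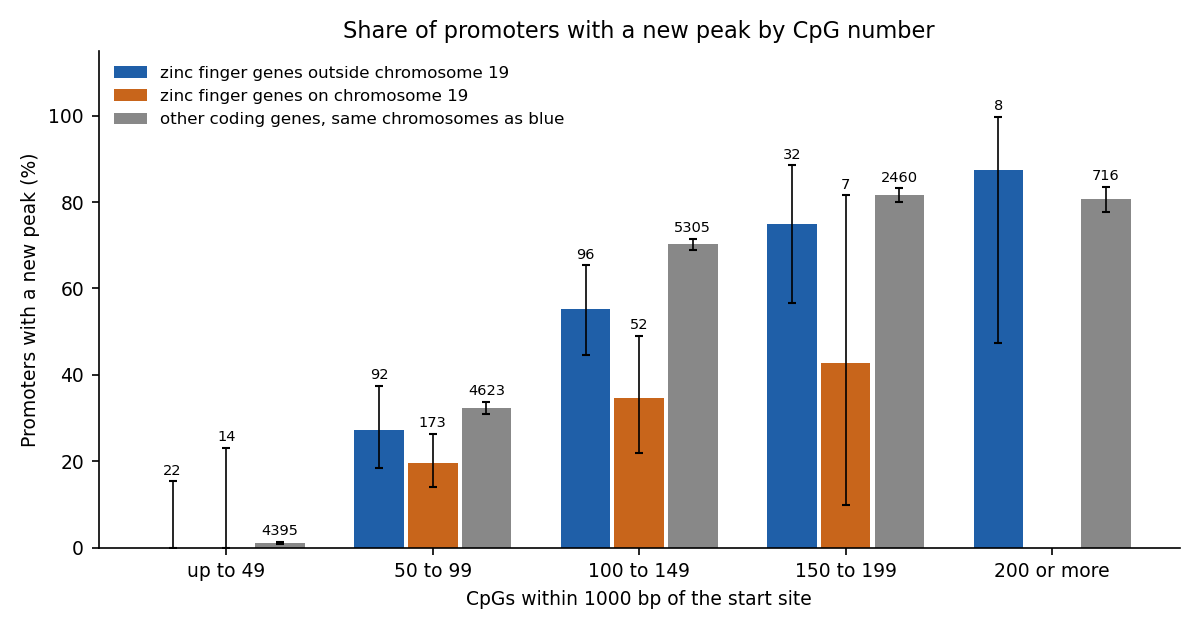
Share of promoters with a new peak (y axis, percent) by CpG number within 1000 bp of the start site (x axis, 5 classes), for zinc finger genes outside chromosome 19, those on it and all other coding genes; bars are 95% exact binomial intervals and numbers above give genes. The share of the members goes from 0 of 22 in the lowest class to 7 of 8 in the highest, which holds few genes.

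Once a peak was called, its fold did not follow CpG number: Spearman's rho was 0.0152 and Pearson's r 0.0347 over the 109 members, which share 1 library, and rho was 0.0483 over all 7966 coding promoters with a peak. ZNF215, an imprinted KRAB gene of the Beckwith-Wiedemann region, had the fewest CpGs of any member with a peak, 69, and a fold of 11.8 with 18 fragments. ZNF827, which recruits the NuRD complex to telomeres, also had 69 CpGs, but a fold of 5.31 with 8 fragments. ZNF621 had 79 CpGs and a fold of 9.31 with 14 fragments.

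**Figure D4:**
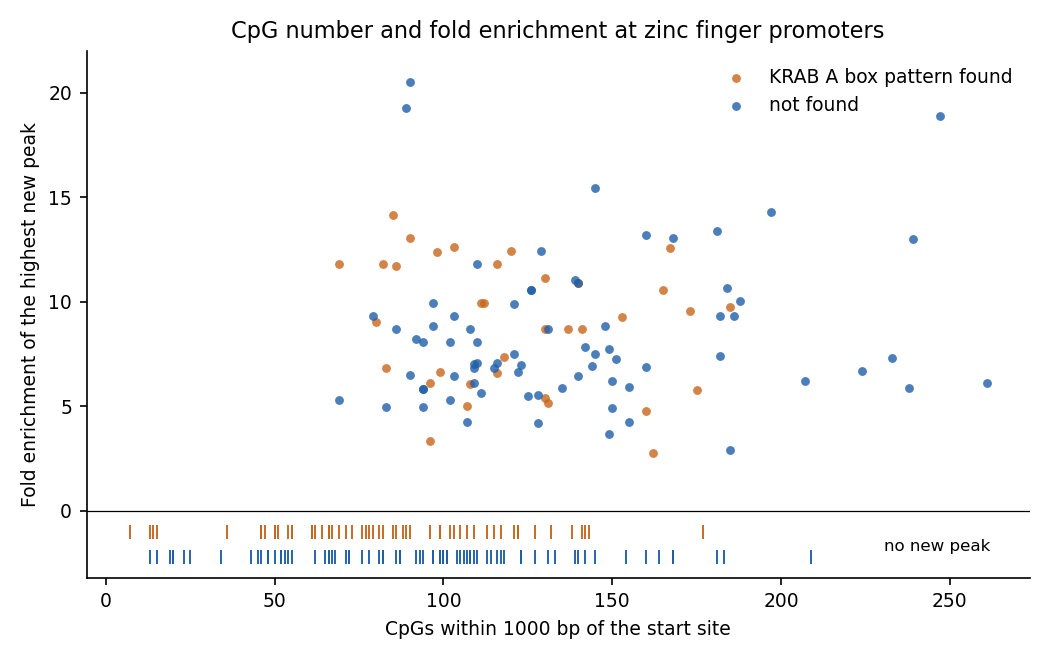
Fold of the highest new peak (y axis) against the CpG number of the promoter (x axis), 1 point per member with a peak, coloured by whether the KRAB letter pattern was found; ticks below 0 are members with no peak, and ZNF479, with no translated protein, is left out. Folds above 10 occur from 69 to 247 CpGs.

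Among CpG-rich promoters, 9 of the 40 members with 150 or more CpGs had no new peak. The richest was ZNF362 with 209 CpGs, followed by ZNF518B with 183, ZNF319 with 181, ZNF316 with 177 and ZNF710 and ZNF511 with 168 each. The nearest new peaks to ZNF362 and ZNF518B lay 74833 and 924470 bp from the start site. ZNF319 shares a divergent promoter with USB1, a nuclease that trims U6 RNA, and had its nearest peak at 24885 bp. ZNF518B is a partner of the histone methyltransferase G9a, and its paralog ZNF518A, with 94 CpGs, did have a peak of fold 8.07 with 12 fragments.

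Other related members were alike in some families and differed in others. All 3 of ZNF354A, ZNF354B and ZNF354C on chromosome 5 had a peak, with folds of 8.68, 5.14 and 5.04, as did ZNF33A (12.4) and ZNF33B (9.03) on chromosome 10 and ZNF804A (10.6) and ZNF804B (6.46). Of the ZNF385 genes, ZNF385B with 135 CpGs had a fold of 5.86, while ZNF385A, ZNF385C and ZNF385D, with 25, 72 and 52 CpGs, had no promoter peak. None of ZNF705A, ZNF705B, ZNF705D and ZNF705G, with 7 to 54 CpGs, had a peak. ZNF705B and ZNF705G share 159 stretches of 50 bp within 250 bp upstream and 50 bp downstream of their start sites. How reads were placed there was not tested. These families were picked after their values were seen.

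The KRAB A box, searched as a letter pattern in the translated coding sequence, was found in 95 members. Of these 35 had a new peak, or 36.8% (27.2 to 47.4), against 74 of the 154 others, or 48.1% (39.9 to 56.2), and the intervals overlapped. The KRAB genes had fewer CpGs, a median of 96 against 109, and a higher median fold where a peak was called, 9.25 against 7.37. In the class from 50 CpGs the shares were 24.4% (11 of 45) and 29.8% (14 of 47), in that from 100 CpGs 48.5% (16 of 33) and 58.7% (37 of 63), and in that from 150 CpGs 88.9% (8 of 9) and 69.6% (16 of 23). When weaker peaks, below a fold of 7.45 (the list's median), were left out, the shares were 23.2% and 23.4%. The pattern was revised several times after shares had been seen and it misses diverged boxes: the 5 forms compared, the widest of them also changed after shares were seen, found 93 to 112 KRAB genes with shares of 35.5% to 38.4%, beside 47.7% to 48.7% of the others.

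Among zinc finger genes of known function, 18 of 26 had a new peak, with a median fold of 7.41. The 250 members as a whole gave 43.6% and 7.84, and all coding promoters of the same chromosomes 44.9% and 8.46. CpG number was not matched between these groups, so it was not separated from the choice of genes. This list was picked by hand with earlier results known. Regulators linked to chromatin were among them: ZNF644, a partner of the G9a complex (8.07, 12 fragments), ZNF638, which silences unintegrated retroviral DNA (8.69, 13 fragments), and ZNF445, which maintains imprints with ZFP57 (6.83, 10 fragments). ZNF143, an activator bound at many promoters, had a fold of 6.65 with 20 fragments in a peak that began downstream of its start site. ZNF451, a SUMO ligase, had 9.93 with 15 fragments.

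The cancer genes ZNF217 and ZNF703 had folds of 6.70 and 9.31 with 15 and 14 fragments over promoters of 224 and 182 CpGs. ZNF423, a partner of EBF factors, had 7.33, ZNF804A, a schizophrenia risk gene, 10.6, ZNF462 8.69 and ZNF281 6.83. ZNF512B (4.25), ZNF622 (5.49), which acts in ribosome maturation, and ZNF407 (5.90) were the lowest of the list.

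The 8 without a promoter peak were ZNF202, ZNF410, ZNF598, ZNF207, ZNF750, ZNF521, ZNF335 and ZNF148. ZNF410 activates CHD4, ZNF598 marks collided ribosomes, ZNF207 acts at kinetochores and ZNF750 in epidermal differentiation. ZNF750 had the fewest CpGs of these, 45, whereas ZNF598 and ZNF335 had 145 and 139. ZNF148 had 2 peaks in its intron 1, with folds of 11.8 and 7.67, at 17764 and 15444 bp downstream of the canonical start, and ZNF521 had 2 in intron 2 with folds of 5.83 and 7.45. ZNF335 had 1 in intron 17, with a fold of 6.19 and 19 fragments.

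New peaks elsewhere in the gene were found for 14 members, or 5.60% (3.10 to 9.22), beside 8.97% of the other coding genes. They numbered 18, and 7 of those genes had none at the promoter. The peak in intron 2 of ZNF385C (fold 7.07, 16 fragments) had its summit 72 bp from the start site of another gene, C17orf113. For ZNF148, ZNF704, ZNF521 and ZNF343 a peak lay at another annotated coding start. With any coding start counted, 113 members, or 45.2%, had a peak, beside 47.3% of all coding genes. ZNF704 had the closest miss, a peak of fold 13.0 with 20 fragments whose near edge lay 1063 bp from the start site, just outside the 1000 bp limit.

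A list of partners of KRAB zinc finger proteins and of the silencing that follows had new peaks at 11 of 20 promoters. The median fold was 6.49, beside 41.6% and 8.26 for all coding promoters of the genome. The list spans chromosomes 19 and X, holds ZNF274, itself a zinc finger gene, and was not matched for CpG number. TRIM28 itself had a fold of 5.60 with 11 fragments, and the HP1 gene CBX1 had the highest, 14.1 with 32 fragments, while CBX3 had 5.59 and CBX5 had no peak. Of the silencing complex HUSH, MPHOSPH8 had a fold of 9.31, whereas TASOR and PPHLN1 had none. No new peak was found at SETDB1, its partner gene ATF7IP having one of fold 7.96, nor at DNMT1, DAXX, ATRX, HDAC1 or CHD3.

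Related families on the same chromosomes gave 22 of 37 ZBTB genes (59.5%, 42.1 to 75.2), 4 of 14 ZSCAN genes, 2 of 7 ZKSCAN genes and 5 of 13 ZFP genes. The share over all coding promoters, 44.9%, lay within the ZBTB interval. The ZBTB promoters had a median of 129 CpGs and the ZSCAN promoters 62.5.

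By chromosome, the members' share lay below that of all coding genes on 10 of the 19 chromosomes with members and above it on 9. Chromosome 10 gave 10 of 16 (62.5%, coding genes 53.9%) with a median fold of 12.1, and chromosome 8 gave 11 of 18 (61.1%, coding genes 45.7%) with promoters of 141 CpGs in the median. Chromosome 17 gave 2 of 11 (18.2%, coding genes 42.6%). Chromosome 15 gave 1 of 7 (14.3%, coding genes 51.7%) and chromosome 3 gave 6 of 19 (31.6%, coding genes 44.3%). Each of these rested on few genes, and the intervals for chromosomes 10 and 17 were 35.4 to 84.8% and 2.28 to 51.8%. Those for chromosomes 15 and 3 were 0.361 to 57.9% and 12.6 to 56.6%. Each of these intervals included the share of all coding genes on that chromosome.

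Clusters were defined as 4 or more members whose neighbouring start sites lie within 250 kb, which gave 12 clusters with 77 members. Members in clusters had a peak in 41.6% of cases (32 of 77) and the others in 44.5% (77 of 173). The clusters were not alike, and chromosome 7 held the extremes.

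None of the 10 members between 63459227 and 64451414 on chromosome 7 had a new peak (upper limit 30.0%): ZNF722, ZNF727, ZNF735, ZNF679, ZNF736, ZNF680, ZNF107, ZNF138, ZNF273 and ZNF117. Their promoters held 14 to 66 CpGs, with a median of 52.5, and the nearest new peak to any of them lay 47321 bp away. Of the other coding genes with 14 to 66 CpGs, 4.41% (196 of 4440) had a peak, and of the 34 other members in that range, 0. These groups had medians of 32 and 50 CpGs, below the cluster's 52.5, so a like range did not give a like CpG number. ZNF107, ZNF273 and ZNF680 share stretches of 50 bp around their start sites (19 to 29 in each pair). How reads were placed there was not tested.

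All 8 members between 148787810 and 149194900 on the same chromosome had a new peak: ZNF786 (fold 9.25), ZNF425 (10.9), ZNF398 (9.77), ZNF282 (5.55), ZNF212 (5.29), ZNF783 (2.79), ZNF777 (12.6) and ZNF746 (5.78). Their fragments ranged from 8 at ZNF212 to 27 at ZNF777. The promoters held 102 to 185 CpGs, with a median of 157.5, and 74.1% of the other coding genes and 58.4% of the other members in this range had a peak. The medians of these groups, 133 and 127 CpGs, were below that of the cluster. ZNF746 (PARIS) is a substrate of the ubiquitin ligase Parkin.

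Between these extremes, the cluster on chromosome 8 had 4 of 6 with a median fold of 10.07, and the cluster on chromosome 10 at 38146538 to 38383265 had 3 of 4, all with folds from 12.4 to 14.2. The cluster on chromosome 3 had 1 of 7, ZNF445, with promoters of 46 to 99 CpGs. The clusters on chromosome 16 had 3 of 7 and 4 of 9, with median folds of 7.49 and 6.32.

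**Figure D5:**
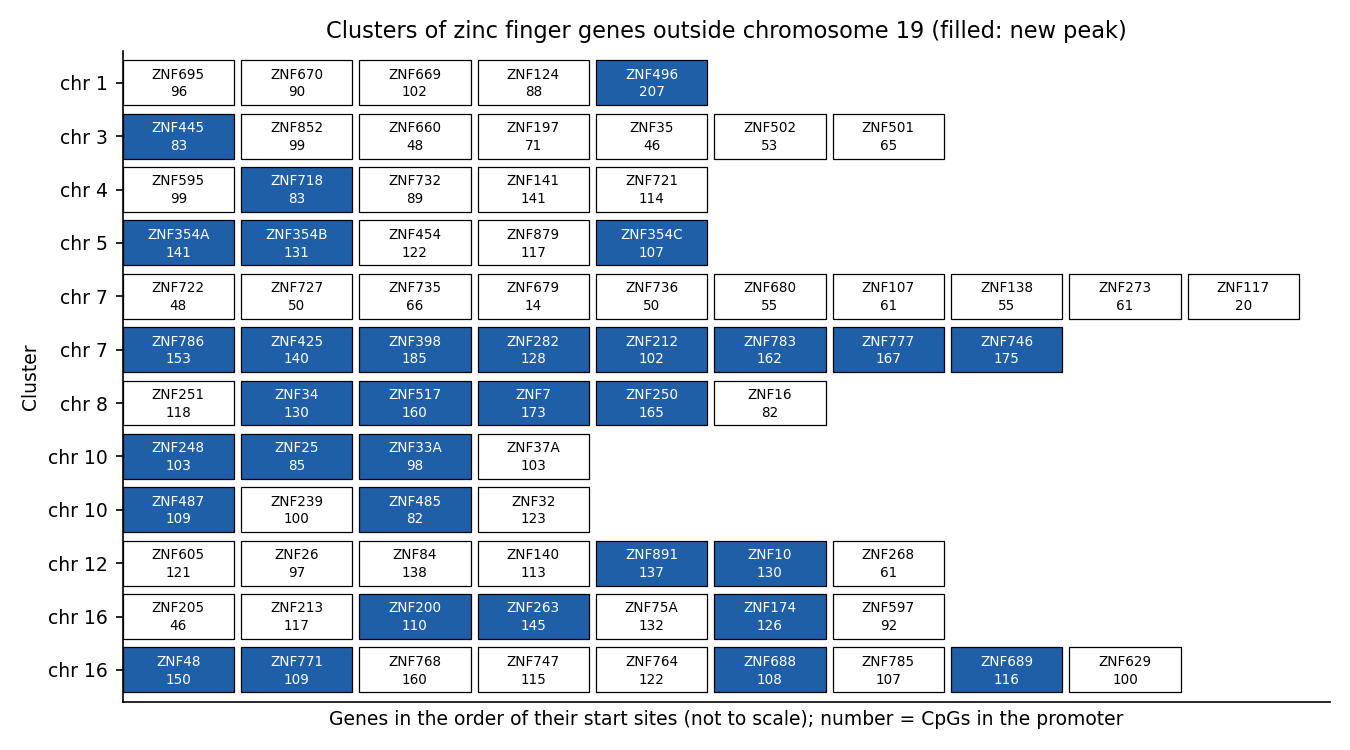
Members of the 12 zinc finger gene clusters outside chromosome 19, WT library. Each row is a cluster, boxes are genes in the order of their start sites and not to scale, filled boxes have a new peak and numbers give promoter CpGs; the 2 chromosome 7 clusters hold 0 of 10 and 8 of 8.

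A start of a non-coding gene on the opposite strand within 1000 bp went with a peak in 28 of 48 members (58.3%, 43.2 to 72.4), a coding start in 10 of 23 (43.5%) and no such start in 71 of 179 (39.7%, 32.4 to 47.2). The first and the last interval overlapped. The other coding genes gave 63.4%, 53.7% and 40.3% in the same order. The median CpG numbers of the members in these groups were 109, 126 and 100.

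Core promoters, 250 bp before to 50 bp after the start, were searched on both strands for 10 motifs chosen with the data in view. Only the ETS, TATA, GC and CCAAT motifs are described here. The ETS motif CCGGAAGT was present in 14.4% of the members and 6.03% of all coding promoters. It was present in 15.6% of the members with a peak and 13.5% of those without. The zinc finger genes of chromosome 19, at any CpG number, gave 16.4% and 20.4%. Among promoters with at least 50 and fewer than 150 CpGs, the members gave 19.2% and 16.4% and the other coding genes 7.37% and 10.9%. The TATA box (TATAAA) was present in 2.80% of the members and 10.07% of all coding promoters. In that CpG range it was present in 3.85% of the members with a peak and 2.73% of those without. The other coding genes in the range gave 4.63% and 6.89%. The GC box GGGGCGGGG was found in 34.9% of members with a peak and 16.3% of those without, beside 24.5% of all coding promoters. With at least 50 and fewer than 150 CpGs the members gave 26.9% and 17.3%, the other coding genes 31.7% and 21.7%, and the zinc finger genes of chromosome 19, at any CpG number, 40% and 20.9%.

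The CCAAT box, searched as CCAAT followed by CA, CG, GA or GG, went the other way, with 17.4% (19 of 109) of members with a peak and 33.3% (47 of 141) of those without, beside 19.9% of all coding promoters. For members with at least 50 and fewer than 150 CpGs the shares were 17.9% and 38.2%, and for other coding genes in that range 20.2% and 22.7%. On chromosome 19 the order was reversed, 49.1% with and 39.8% without a peak. Among the members, the box was present in 34.7% of KRAB genes and 21.4% of the others. The KRAB genes also had the lower share with a peak (36.8% against 48.1%), and peak status and KRAB class were not separated. The form ending in GG was added after the first 3 had been counted, which had given 11.0% and 29.1%. A match of letters is a description of the sequence and not a bound site.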

How the data were processed

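MBD-seq of genomic DNA was performed by the authors with 1 library per condition, and here the WT library's new peaks were analysed. Reads were mapped to hg19 with Bowtie2 at its defaults by the authors. The submitters' processing notes also name FastQC, deepTools (used for coverage tracks, not analysed here) and MACS2, whose settings are not given in the sources used here. Each deposited peak has a fold (summit fragments over background, a ratio), a −log10 p-value, a −log10 q-value, a score that was not used, and the offset of its summit. The smallest −log10 q was 2.00.

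For each peak, the summit's fragments k and the background rate were solved from fold = (k + 1)/(rate + 1) together with a Poisson upper tail for the p-value, with a largest miss of 0.000403 in −log10 p. That the caller used these formulas, with untreated cells as control, was inferred from the values. The methods give an average read number over the samples but not that of each library, so the WT library's depth is unknown, and precision is set by a median of 18 fragments per peak. Of 12864 peaks, 12795 fall on the numbered and sex chromosomes.

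Positions, CpGs and sequences come from the GRCh37 genome and GENCODE 44 lifted to it. For 281 coding genes, of which ZNF479 is a member, no canonical transcript was lifted and the 5′ end of the gene was used. Readthrough genes and ZNF593OS were left out. No protein table was at hand, so the KRAB pattern was searched in proteins translated from the annotated coding sequence, in place of the RefSeq proteins first planned.

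Members, lists, motifs and clusters were chosen with earlier results of these data known. The genes named are the 8 highest and 4 lowest folds, the 5 widest peaks, the 3 members with a peak and the fewest CpGs, the 5 without a peak and the most CpGs, every gene of clusters where none or all had a peak, and a functional list of 26 genes. Other names were chosen after values were seen. No test was run. Shares have 95% exact (Clopper-Pearson) intervals, and a share of 0 is also given an upper limit of 3 counts. On simulated data, fragments were recovered in 1000 of 1000 peaks, overlaps in 400 of 400 promoters, and 387 of 400 intervals covered the true share. Scripts ran under Python 3.11.15 (numpy 2.4.6; scipy 1.17.1 for intervals; pandas 2.3.3 for tables; matplotlib 3.10.9 for figures).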

Additional observations from a re-analysis of the deposited data

How the results depend on the processing

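Of 72 alternative values computed, 54 stayed within 1.5 times the value given above (counts and medians) or within its 95% interval (shares), and 18 did not. Leaving out peaks below the list's median fold, 58 members (23.2%) had a peak, beside 28.2% of all coding promoters, 23.2% of KRAB genes and 23.4% of the others. With a −log10 q of at least 10 the values were 59 (23.6%), 27.0%, 24.2% and 23.4%, so the lower share of KRAB genes was not seen under either stricter limit. With the start site covered they were 63 (25.2%) and 29.2%. The share of all coding promoters alone moved to 43.1% with a window of 500 bp, 45.9% with 2000 bp, 43.7% with the summit in the window and 47.3% with any coding start. The median fold became 15.8 when fragments were divided by the background rate without the added counts. These moves follow from fewer or more peaks being counted, or from the other ratio. Without each chromosome in turn the members' share was 42.2% to 44.8%. All forms of the KRAB pattern, the looser one included, were set or changed after shares had been seen. By CpGs within 250 bp of the start site, the highest CpG class went from 87.5% to 50% and the lowest from 0% to 4.55%, within the intervals of these small classes. No paired analysis was possible because each condition has 1 library and only the WT list was analysed here. Depth limits every promoter without a peak, since no signal below the caller's threshold is listed.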
